A study of Mus musculus and Homo sapiens with 8 samples.

Results

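The genes described here are the partners of the BCR-ABL1 kinase fusion, the kinase JAK2, the paralogous transcription factors STAT5A and STAT5B, and 4 direct STAT5 outputs. These 9 genes (BCR, ABL1, STAT5A, STAT5B, JAK2, CISH, SOCS2, PIM1 and PIM2) were taken by symbol, as written for the human tables and with only the first letter capital for the mouse tables. All 9 were found among the 20296 genes of the KU812 tables and all 9 among the 17097 genes of the LSK tables. All 9 passed the filter on low counts in each experiment, among 16529 genes tested in KU812 cells and 14598 in LSK cells. Messenger RNA was measured by RNA sequencing in 4 groups of 2 libraries. The human cells were KU812, an established line from a chronic myelogenous leukemia (CML) that shows traits of basophils, with a short hairpin RNA against ANP32B (shANP32B) or a control hairpin (shNC). The mouse cells were LSK cells, the lineage-negative, Sca-1+, c-Kit+ fraction of bone marrow that holds stem and early progenitor cells, from C57BL/6 mice that were Anp32b-KO or wild type (WT). The sources used here do not give the hairpin sequences, the design of the knockout allele, the cells that carry the deletion, or the age, sex and number of the mice. KU812 is a single line and stands for 1 leukemia.

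In CML, the Philadelphia translocation joins the start of BCR to ABL1 and yields a tyrosine kinase that is always active. Among its substrates are STAT5A and STAT5B, which form dimers on phosphorylation, enter the nucleus and switch on genes that carry the motif TTCNNNGAA. In normal stem and progenitor cells the same factors are switched on by JAK2 bound to receptors for cytokines such as erythropoietin, thrombopoietin and interleukin 3. CISH and SOCS2 encode adaptors that dampen cytokine signalling, and PIM1 and PIM2 encode serine/threonine kinases that favour survival and growth. All of this acts through phosphorylation, which RNA levels do not measure.

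Library totals ran from 24416691 to 28209409 counts in KU812 cells and from 10549358 to 15683480 in LSK cells. The targeted gene stood at 40.4 and 38.2 CPM (counts relative to the scaled library total) in shANP32B, against 250.2 and 286 CPM in shNC, and Anp32b at 201 and 248.7 CPM in KO, against 794 and 730 CPM in WT. The summed level of 11 basophil and mast cell markers was 5768 and 5841 CPM in shANP32B and 6650 and 6021 CPM in shNC. These groups do not overlap, and IL3RA was the lowest of the markers. The 10 LSK markers summed to 2247 and 2145 CPM in KO and to 2211 and 1995 CPM in WT, with Kit, Ly6a (Sca-1) and Flt3 all detected. The first WT library stood apart by its B cell markers, mostly Igkc: these summed to 914 and 1148 CPM in KO, and in WT to 3134 CPM there and 611 CPM in the other library. Of the 8 neutrophil markers Elane was the largest, at a mean of 915 CPM over all LSK libraries. The 8 summed to 1489 and 1811 CPM in KO, against 2278 and 2022 CPM in WT, groups that do not overlap. Nor did those of 5 stromal and endothelial markers, mostly Pecam1, at 128 and 111 CPM in KO, against 170 and 138 CPM in WT. Whether these markers came from other cells or from LSK cells, and their part in the LSK values below, was not tested. Fewer cells of a type and less RNA per cell cannot be told apart in bulk samples. Separate cultures or animals are not stated for the replicates, so p-values measure no more than how far these libraries differ, possibly for technical reasons.

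STAT5A and STAT5B are near copies of each other, which bears on every STAT5 value below. In mouse, where the transcripts could be read, the longest open reading frames of Stat5a and Stat5b are identical at 2131 of 2344 aligned bases (90.9%), and 324 bases in a row are the same in both. The stretch printed here runs from coding base 865 to 954 of each transcript (GENCODE M21, both genes on chromosome 11, counted from the A of the start codon), with the last 30 bases of the shared run first. It is shown because reads within it that miss the 1 differing position match both genes equally. Capitals mark that position, the only one of these 90 at which the paralogs differ.
Stat5a: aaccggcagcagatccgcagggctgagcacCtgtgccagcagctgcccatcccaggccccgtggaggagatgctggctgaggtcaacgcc
Stat5b: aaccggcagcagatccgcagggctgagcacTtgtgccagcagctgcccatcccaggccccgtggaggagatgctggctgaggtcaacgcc
Of all windows of 50 bases, 15.8% of those of the Stat5a transcript also occur in Stat5b, and 11.8% of those of the Stat5b transcript in Stat5a. Between Pim1 and Pim2 no such window is shared (0 of 2649), and the longest shared coding run is 17 bases. The sources used here give neither the read length nor the treatment of reads that match several genes.

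The STAT5 motif itself stands in the mouse Cish promoter, the textbook STAT5 target of this gene set. RefSeq promoter sequences (GRCm38.p6, 250 bases before to 50 after a transcript start) were matched for 8 of the 9 genes, 12 promoters in all. The gene without a match was Socs2, whose promoter was therefore not searched. The palindrome TTCNNNGAA, which reads the same on both strands, was present in 1 of the 12. In the Cish promoter it occurs 2 times, beginning at bases 1 and 12 of the transcript. The window printed next is chr9:107296654-107296683 on the plus strand, with both copies in capitals.
Cish: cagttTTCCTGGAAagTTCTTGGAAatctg
Of all 32851 promoters in the table, 8.3% hold the motif at least once and 0.457% hold it at least 2 times. These are matches of letters, not measured binding, and the other promoters hold no copy in this window only.

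In KU812 cells the comparison of shANP32B with shNC asks whether the fusion's own partners, STAT5 and the genes it drives differ when ANP32B is low. STAT5B and PIM1 were lower and SOCS2 and PIM2 were higher in shANP32B, and 5 genes did not pass (edgeR quasi-likelihood test, adjusted p under 0.05 over all genes tested). That is 2 of 9 higher and 2 of 9 lower, against 7.53% of all tested genes called higher and 9.06% called lower. Scaled by library totals alone, 1474 genes were higher and 1182 lower, in place of 1244 and 1497. The total of 2741 calls over all genes was 1621 without the first and 1413 without the second shANP32B library, and 3282 and 4047 without the first and the second shNC library. In every fit without 1 library, here and below, its group has a single library, which is assumed to vary like the other groups of the fit. An unadjusted p under 0.05 was found for 5 of 9 genes, against 30.5% of all tested genes. The groups did not overlap for 2 of 9 genes higher and 5 of 9 lower in shANP32B, against 29.5% and 28.9% of all tested genes. The 9 genes had a median log2 fold change of -0.23, against 0.0041 over all genes tested, and no test was made of them as a set.

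Of the kinase genes, BCR stood at 61.5 and 53.2 CPM in shANP32B, against 67.5 and 67.0 CPM in shNC. ABL1 stood at 157 and 147 CPM in shANP32B, against 175 and 163 CPM in shNC. Reads of the fusion transcript fall on exons of BCR and of ABL1, so these values hold the fusion and the unfused copies together. Both genes lay lower in each shANP32B library than in either shNC library, yet neither passed, with a log2 fold change of -0.23 (SE 0.13, 95% interval -0.50 to 0.043, adjusted p = 0.245) for BCR and -0.15 (SE 0.11, -0.39 to 0.080, adjusted p = 0.376) for ABL1. Groups that do not overlap are common here, at 58.5% of all tested genes. The log2 ratios of BCR to ABL1 counts overlapped, at -1.35 and -1.46 in shANP32B and -1.37 and -1.28 in shNC.

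JAK2, the kinase of the erythropoietin, thrombopoietin and interleukin 3 receptors, stood at 48.2 CPM in each of the shANP32B libraries, against 64.6 and 56.9 CPM in shNC. The groups did not overlap. Its log2 fold change was -0.33 (SE 0.13, 95% interval -0.61 to -0.057), and it did not pass with an adjusted p of 0.0955. Set against the first shNC library alone, the higher of the pair, it was -0.43, in a fit whose spread comes from the shANP32B pair only. JAK2 was called in that fit and under no other alternative.

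Of the STAT5 paralogs, STAT5B fell and STAT5A did not pass; the difference between them was not tested. STAT5B stood at 299 and 268 CPM in shANP32B, against 424 and 408 CPM in shNC. Both shANP32B libraries lay well below both shNC libraries. This is a 1.47-fold lower level in shANP32B, with a log2 fold change of -0.55 (SE 0.10, 95% interval -0.77 to -0.33, adjusted p = 0.00275), and the call was made under every alternative tried and without any 1 library. STAT5A stood at 482 and 428 CPM in shANP32B, against 463 and 493 CPM in shNC, groups that overlap. Its log2 fold change of -0.07 (SE 0.10) had a 95% interval from -0.29 to 0.15, which does not reach the STAT5B value.

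Summed over the paralogs, STAT5 stood at 781 and 696 CPM in shANP32B, against 887 and 901 CPM in shNC. The groups did not overlap. This sum does not depend on how shared reads were divided between the paralogs. Any shared reads left out of the counts would be missing from it too. Fitted as 1 feature, an alternative chosen after seeing the data, the sum had a log2 fold change of -0.28 (SE 0.095, adjusted p = 0.0642). Fits of this sum in KU812 cells without 1 library leave a group with a single library, and their p-values are not given here. With all 4 libraries STAT5B was called and the pair was not.

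Among the STAT5 outputs, SOCS2 rose and CISH did not pass. CISH, an SH2 adaptor that binds activated cytokine receptors, stood at 72.2 and 59.8 CPM in shANP32B, against 89.9 and 69.0 CPM in shNC. The groups overlap, and the log2 fold change of -0.27 (SE 0.15, 95% interval -0.59 to 0.048) did not pass (adjusted p = 0.241). Set against the first shNC library alone, again the higher of the pair, it was -0.46, and here too only the shANP32B pair gives the spread. CISH was likewise called in that fit and under no other alternative. SOCS2, an adaptor that recruits a ubiquitin ligase to receptors such as that of growth hormone, stood at 178 and 198 CPM in shANP32B, against 147 and 136 CPM in shNC. Both shANP32B libraries lay above both shNC libraries, and SOCS2 was 1.33-fold higher, with a log2 fold change of 0.41 (SE 0.11, 95% interval 0.17 to 0.65, adjusted p = 0.0233). This call was lost without the first (0.48, adjusted p = 0.0574) and without the second shANP32B library (0.32, adjusted p = 0.31). The antisense gene SOCS2-AS1 was read at 3.40 and 3.51 CPM in shANP32B and at 3.25 and 2.81 CPM in shNC. No strand setting is given for the counts, so reads of the antisense partners cannot be told apart, although those listed for SOCS2-AS1 were few.

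Of the PIM kinases, PIM2 rose and PIM1 fell. PIM2 stood at 212 and 201 CPM in shANP32B, against 149.9 and 119.7 CPM in shNC. Both shANP32B libraries were higher than both shNC libraries. PIM2 was 1.53-fold higher, with a log2 fold change of 0.61 (SE 0.12, 95% interval 0.35 to 0.88, adjusted p = 0.00441), and the call was made under every alternative and without any 1 library. PIM1 stood at 1854 and 1661 CPM in shANP32B, against 2986 and 1919 CPM in shNC. Here the first shNC library stood far above the other 3. The log2 fold change of PIM1 was -0.48 (SE 0.15, 95% interval -0.80 to -0.16, adjusted p = 0.0422). Without the first shNC library it was -0.13 and the call was lost (adjusted p = 0.203), as it was with library totals alone (-0.43, adjusted p = 0.0879) and with the DESeq2 test (-0.48, adjusted p = 0.333).

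**Figure D1:**
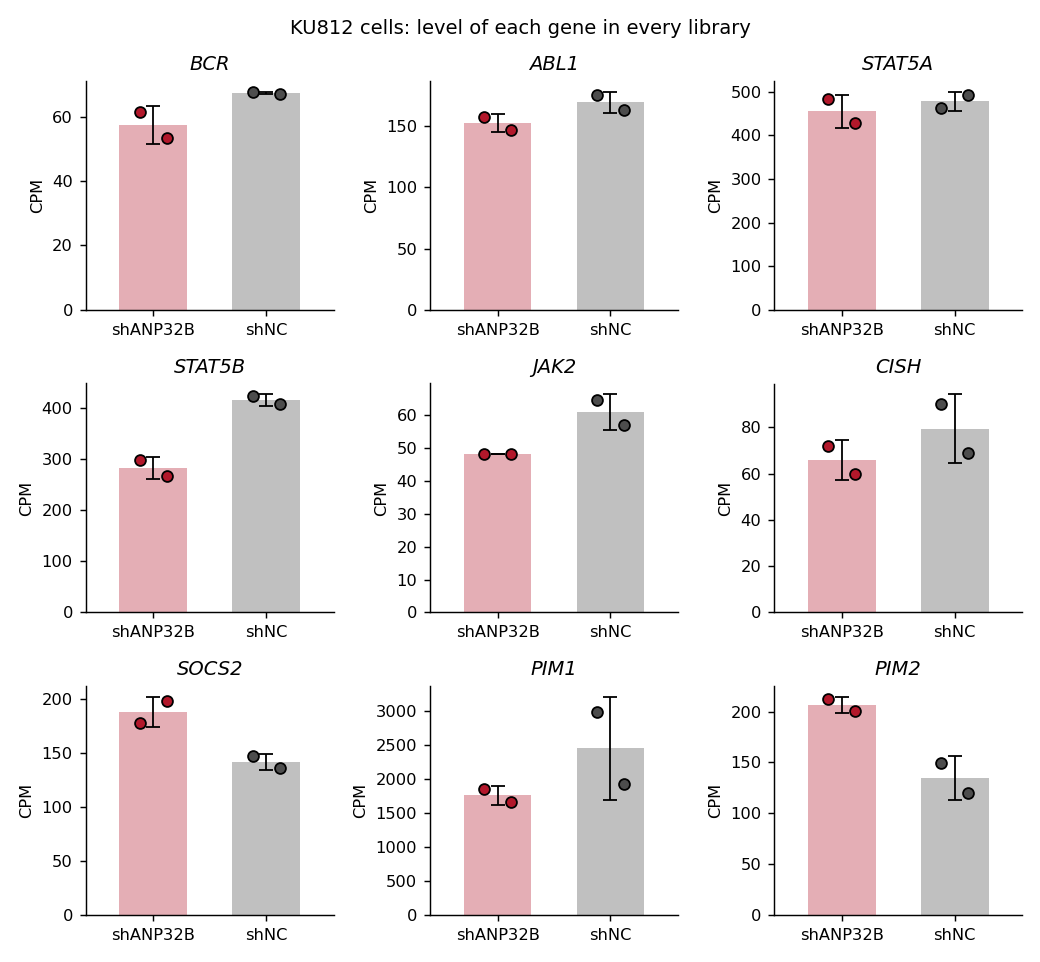
Level in CPM (vertical axes from 0) of each of the 9 genes in KU812 cells, shANP32B (red) left of shNC (grey). Points are libraries, bars the mean of 2 and error bars the SD. STAT5B, PIM1, BCR, ABL1 and JAK2 are lower and PIM2 and SOCS2 higher in both shANP32B libraries. BCR, ABL1 and JAK2 did not pass the test, and the PIM1 control libraries lie far apart at 2986 and 1919 CPM.

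Ratios within a library show the shift inside each pair without any scaling between libraries. The log2 ratio of STAT5A to STAT5B counts was 0.69 and 0.68 in shANP32B, against 0.13 and 0.27 in shNC. STAT5A thus took 61.7% and 61.5% of the counts of the pair in shANP32B, against 52.2% and 54.7% in shNC. The log2 ratio of PIM1 to PIM2 counts was 3.13 and 3.05 in shANP32B, against 4.32 and 4.0 in shNC, a difference of -1.07 between the group means. The PIM1 to PIM2 groups did not overlap in spite of the spread of PIM1 between the shNC libraries. That of CISH to SOCS2 was -1.30 and -1.73 in shANP32B, against -0.71 and -0.98 in shNC. Counts of different genes also scale with transcript length, so only the change of a ratio between libraries can be read, not its size.

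**Figure D2:**
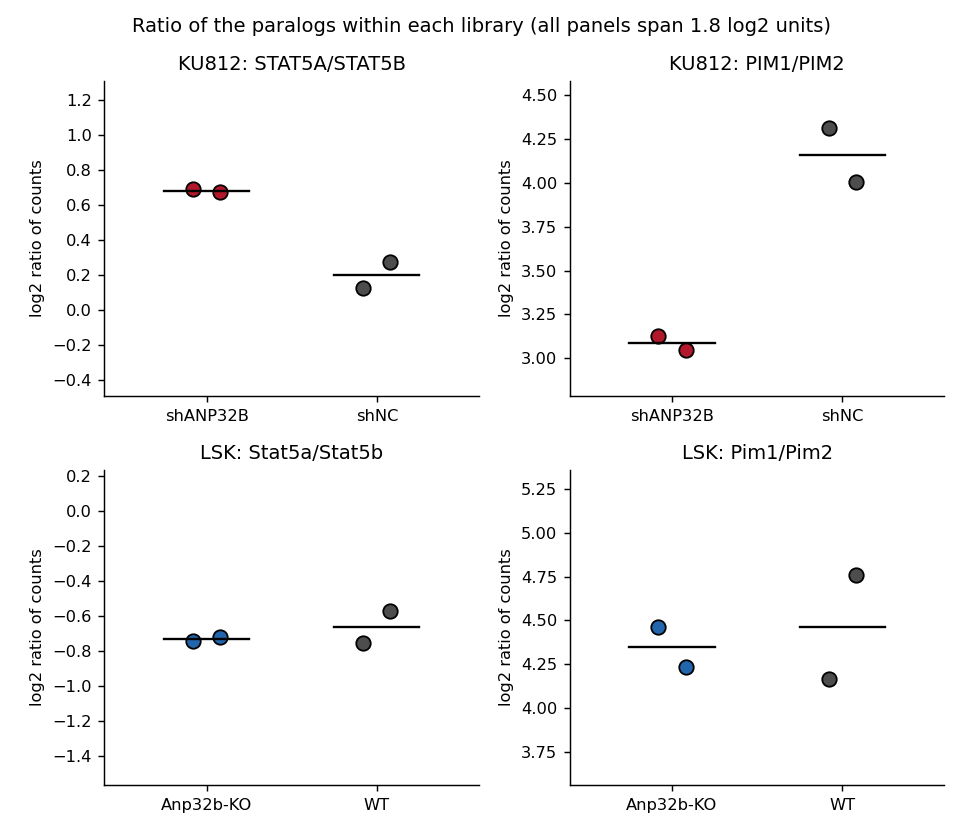
Log2 ratio of counts of STAT5A to STAT5B and of PIM1 to PIM2 in each library, KU812 above and LSK below, with the perturbed group on the left of each panel and lines at group means. Each axis spans the same range; the KU812 groups are apart for both ratios (0.69 and 0.68 against 0.13 and 0.27 for STAT5), and the LSK groups overlap for both.

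In LSK cells none of the 9 genes passed. The comparison asks the same of normal stem and progenitor cells, which carry no fusion. None had an unadjusted p under 0.05, against 4.5% of all tested genes, and none passed with DESeq2 or limma-voom either. At an adjusted p under 0.05, 0% of the 14598 genes were called. Anp32b itself had a log2 fold change of -1.76 (SE 0.17) and missed the threshold (adjusted p = 0.148, edgeR quasi-likelihood test), but passed with limma-voom (adjusted p = 0.0133) and with DESeq2 (adjusted p = 1.28e-22). DESeq2 called 15 of all LSK genes and limma-voom 2. Over all LSK genes 36 were called without the first WT library, 830 without the second and 5 without the first KO library. The 9 genes were not among the calls in any of these. Their median log2 fold change was 0.022, within a range of -0.19 to 0.29, against -0.0079 over all genes tested.

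Stat5b stood at 183 and 175 CPM in KO cells, against 154 and 177 CPM in WT cells, and Stat5a at 109.8 and 106 CPM in KO, against 90.9 and 119 CPM in WT. The WT libraries enclosed the KO libraries for Stat5a, and for Stat5b the groups overlap. The log2 fold change of Stat5b was 0.12, with a 95% interval from -0.22 to 0.46, and that of Stat5a was 0.046, with an interval from -0.33 to 0.42. Stat5a took 37.4% and 37.8% of the counts of the pair in KO, against 37.2% and 40.2% in WT.

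Pim1 stood at 618 and 512 CPM in KO, against 488 and 625 CPM in WT, and Pim2 at 28.1 and 27.3 CPM in KO, against 27.3 and 23.1 CPM in WT. Neither kinase separated the groups, with log2 fold changes of 0.022 (SE 0.19) for Pim1 and 0.13 (SE 0.17) for Pim2. Socs2 stood at 16.2 and 12.8 CPM in KO, against 12.6 and 10.97 CPM in WT, with a log2 fold change of 0.29 and a 95% interval from -0.24 to 0.83. Its groups did not overlap, by a narrow gap, and it was the only one of the 9 that was higher in both KO libraries. Cish stood at 29.2 and 18.3 CPM in KO, against 31.1 and 21.1 CPM in WT, and varied more between replicates than between groups.

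Jak2 was the only one of the 9 that was lower in both KO libraries, at 106 and 104 CPM, against 129.6 and 107 CPM in WT. Its log2 fold change was -0.18 (SE 0.15). With Socs2 it makes 2 of 9 genes whose groups do not overlap, against 33.2% of all tested genes (17.7% higher and 15.6% lower in KO). Abl1 stood at 190.2 and 193 CPM in KO, against 194 and 191 CPM in WT. Its log2 fold change was the smallest of the 9, at -0.0057 with a 95% interval from -0.32 to 0.31; scaled by library totals alone the sign of Abl1 flipped, to 0.041. Bcr stood at 130.3 and 128 CPM in KO, against 165 and 130.2 CPM in WT, with a log2 fold change of -0.19 and a 95% interval from -0.56 to 0.17. As for Jak2, the first WT library was the highest of the 4.

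**Figure D3:**
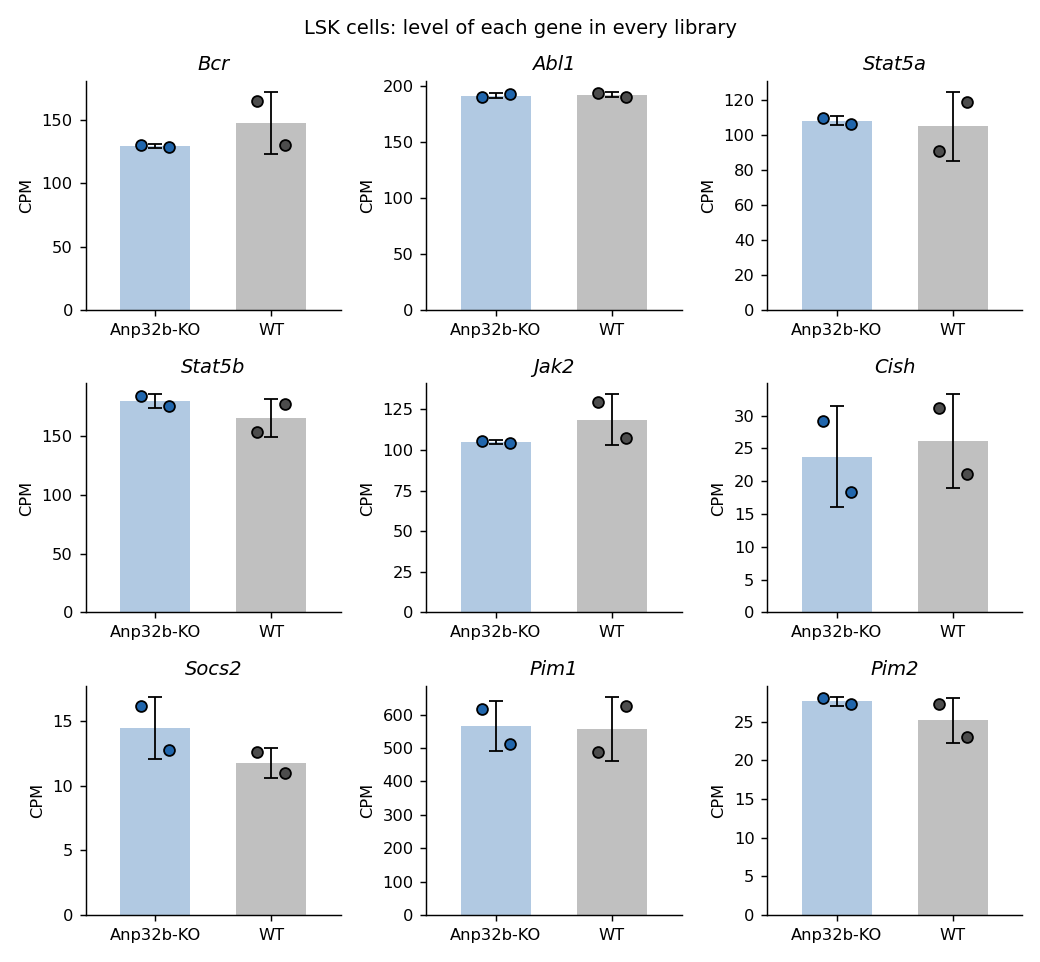
Level in CPM (vertical axes from 0) of each of the 9 genes in LSK cells, Anp32b-KO (blue) left of WT (grey). Points are libraries, bars the mean of 2 and error bars the SD; only Socs2 and Jak2 have groups that do not overlap, and none of the 9 passed the test.

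Divided by the summed length of all annotated exons (GENCODE M21, GRCm38), levels were ordered between genes in LSK cells. This sum takes in the exons of every annotated transcript and can exceed the length of a single transcript. For Stat5a it is 7133 bases, against 3888 in its longest coding transcript, and for Stat5b 5539 against 5213. The order below therefore holds for this divisor only. Pim1 (chromosome 17, 29490753 to 29496112) was the highest, at 168 ± 22.2 CPM per kb in KO and 166 ± 28.7 CPM per kb in WT (SD, n = 2 each). Stat5b (chromosome 11, 100780731 to 100850724) followed at 32.4 ± 1.05 CPM per kb in KO and 29.8 ± 2.95 CPM per kb in WT. Stat5a (chromosome 11, 100859351 to 100885169) stood at 15.2 ± 0.341 CPM per kb in KO and 14.7 ± 2.75 CPM per kb in WT. Stat5b was higher than Stat5a in all 4 libraries. How shared reads were divided could change this order, and the gap between them depends on the length used. Jak2 (chromosome 19, 29251828 to 29313080) came next after Stat5b, at 20.9 ± 0.193 CPM per kb in KO and 23.6 ± 3.11 CPM per kb in WT. Abl1 (chromosome 2, 31688376 to 31804227), Bcr (chromosome 10, 75060592 to 75184921) and Stat5a lay between 14.9 and 16.6 CPM per kb in the KO libraries and overlapped in the WT libraries, so their order is not set beyond the spread. Pim2 (chromosome X, 7878262 to 7883432) stood at 9.90 ± 0.204 CPM per kb in KO and 9.01 ± 1.06 in WT. By this divisor the feedback genes were lowest, with Cish (chromosome 9, 107296026 to 107302784) at 3.70 ± 1.20 CPM per kb in KO and 4.07 ± 1.11 in WT, and Socs2 (chromosome 10, 95385362 to 95417180) at 1.52 ± 0.252 in KO and 1.24 ± 0.120 in WT. Before division, Cish averaged 23.8 CPM in KO and 26.1 CPM in WT, near Pim2 at 27.7 and 25.2 CPM. The place of Cish below Pim2 thus rests on their exon lengths, 6419 and 2795 bases. Human gene lengths were not used here, so no such order is given for KU812.

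**Figure D4:**
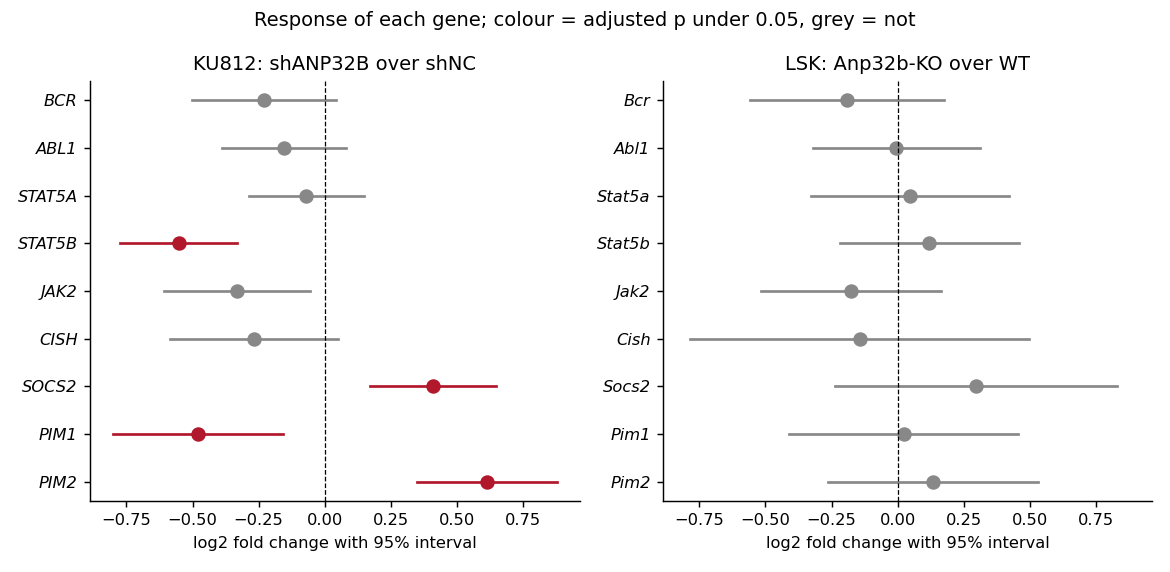
Log2 fold change of each gene with its 95% interval, shANP32B over shNC in KU812 (left) and Anp32b-KO over WT in LSK (right); coloured genes have an adjusted p under 0.05. In KU812 the intervals of STAT5B and PIM1 lie below 0 and those of SOCS2 and PIM2 above it, that of JAK2 also lies below 0 without passing after adjustment, and all LSK intervals include 0.

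Whether a gene responded differently in KU812 and LSK cells was tested as an interaction over all 8 libraries. Of 10855 symbols found once in each species, matched by upper-case spelling alone, 10771 were tested after the filter on low counts. None of the 9 genes passed (2.22% of the symbols did, 239 genes), and 2 of 9 had an unadjusted p under 0.05, against 17.9% of all symbols. STAT5B came nearest, with a KU812 minus LSK difference in log2 fold change of -0.65 (SE 0.17, adjusted p = 0.0779, edgeR quasi-likelihood test). Without the second WT library, which leaves the WT library that stood apart by its B cell markers, it was -0.76 with an adjusted p of 0.0171, and 6.63% of all symbols passed. PIM2 followed at 0.50 (SE 0.20, adjusted p = 0.228) and PIM1 at -0.49 (SE 0.30, adjusted p = 0.429). A different response of these genes in KU812 and LSK cells is therefore not shown, and species, disease and means of loss cannot be told apart.

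The wider pathway was read from 5 lists, 78 genes in all, of which 71 were tested in KU812 cells and 77 in LSK cells. In KU812 cells 9 rose and 11 fell, against 16.6% of all tested genes called in either direction. Their median log2 fold change was 0.032, and calls in each direction stood side by side within most lists.

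Of 8 other JAKs and STATs in KU812 cells 1 rose and 0 fell, with a median of 0.15. The riser was STAT3, the factor of interleukin 6 signalling, at 416 ± 4.24 CPM in shANP32B and 318 ± 6.90 CPM in shNC (SD, n = 2 each; log2 fold change 0.39, adjusted p = 0.0157). The call was lost without either shANP32B library (adjusted p of 0.132 and 0.13). Of 16 negative regulators 1 rose and 2 fell. SH2B3, the adaptor LNK that restrains JAK2, rose to 281 ± 9.94 CPM in shANP32B, against 193 ± 2.43 CPM in shNC (log2 fold change 0.55). PTPN1, a tyrosine phosphatase that acts on JAK2, fell by 0.66 on the log2 scale and PIAS2, a SUMO ligase, by 0.51. PIAS2 lost its call without the first shANP32B library (adjusted p = 0.366) and with library totals alone (adjusted p = 0.0562).

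Of 15 other reported STAT5 targets 3 rose and 4 fell in KU812 cells, with a median of -0.015. MYC, the growth transcription factor, fell to 594 ± 107 CPM in shANP32B, against 1053 ± 49.9 CPM in shNC (log2 fold change -0.82, adjusted p = 4.50e-04). OSM, the cytokine oncostatin M, fell by 0.66 and the cyclin gene CCND3 by 0.59 on the log2 scale. The other D cyclins rose, CCND1 by 0.60 and CCND2 by 1.72, the last at low levels of 4.59 and 2.82 CPM in shANP32B, against 1.502 and 0.732 CPM in shNC. AKT1, a survival kinase, rose by 0.35. Without the first shANP32B library the calls for CCND2 and AKT1 were lost (adjusted p of 0.178 and 0.267) and the list held 4 calls in place of 7. Without the second, that for AKT1 was lost (adjusted p = 0.19).

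Of 20 tested BCR-ABL adaptors, kinases and substrates 3 rose and 3 fell, with a median of 0.11. The adaptors GAB2 and CRKL, both bound or phosphorylated by the fusion kinase, fell to 89.2 ± 3.78 and 98.2 ± 2.66 CPM in shANP32B, against 132 ± 18.7 and 145 ± 22.8 CPM in shNC (log2 fold change -0.57 and -0.56). ABL2, the paralog of ABL1, fell by 0.42. SOS1, the exchange factor that loads RAS, rose to 668 ± 39.4 CPM in shANP32B, against 418 ± 65.2 CPM in shNC (log2 fold change 0.68, adjusted p = 0.00152). DOK2, an adaptor that restrains RAS signalling, rose by 0.67 and PIK3R1, the regulatory subunit of PI3 kinase, by 0.43. ABL2 lost its call without either shANP32B library (adjusted p of 0.185 and 0.158), and PIK3R1 and GAB2 lost it without the second (adjusted p of 0.485 and 0.0512).

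Of 12 tested receptors 1 rose and 2 fell, with a median of -0.14. EPOR, the erythropoietin receptor, fell to 44.4 ± 1.34 CPM in shANP32B, against 70.1 ± 11.8 CPM in shNC (log2 fold change -0.66). Beside it, 8 erythroid markers summed to 2836 and 3030 CPM in shANP32B and to 3887 and 4491 CPM in shNC, and their part in the EPOR value was not tested. IL5RA, the interleukin 5 receptor, fell by 0.90, to 7.99 and 6.29 CPM in shANP32B, against 13.3 CPM in each shNC library. IL6ST, the gp130 chain through which interleukin 6 reaches STAT3, rose by 0.51. IL5RA and IL6ST lost their calls without the second shANP32B library (adjusted p of 0.14 and 0.189). The receptor list held 5 and 6 calls without the first and the second shNC library, and the negative regulators 6 without either.

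**Figure D5:**
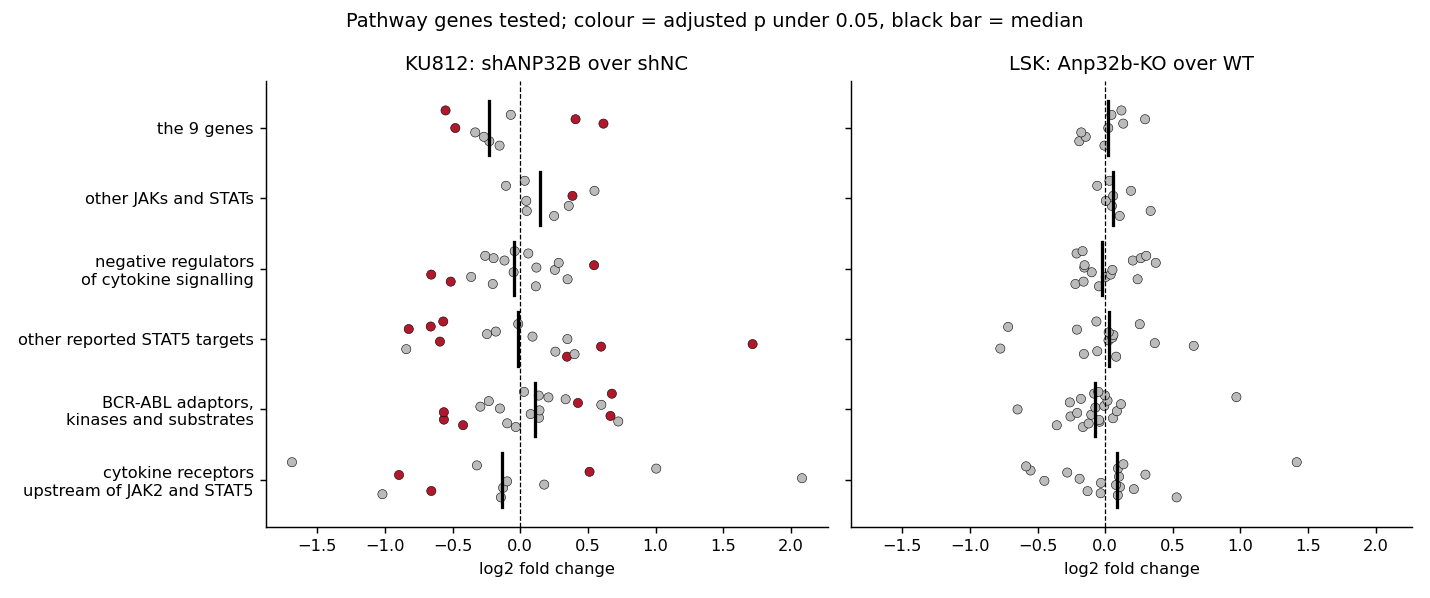
Log2 fold change (horizontal axes) of the 9 genes and of every tested gene of 5 pathway lists, shANP32B over shNC in KU812 (left) and Anp32b-KO over WT in LSK (right); points are genes, coloured where the adjusted p is under 0.05, and black bars are medians. In KU812 calls fall on both sides of 0 in every list but the other JAKs and STATs, and in LSK no gene is coloured.

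In LSK cells 0 of the 77 pathway genes passed (edgeR quasi-likelihood test), 6 had an unadjusted p under 0.05 (4.5% of all tested genes did), and DESeq2 and limma-voom called 0. Without the second WT library 9 passed, against 830 of 15352 genes in all (5.41%). In 4 of the lists the gene with the smallest p, none past the threshold, was Jak3, the kinase of the common gamma chain receptors (log2 fold change 0.34), Socs5, a suppressor of cytokine signalling (0.30), Osm (-0.72) and the interferon gamma receptor gene Ifngr1 (-0.45). Osm stood at 39.4 and 32.1 CPM in KO cells, against 65.1 and 52.2 CPM in WT cells, and was lower in KO as OSM was in shANP32B. Without the second WT library the adjusted p was 0.0409 for Jak3, 0.0113 for Osm and 0.00854 for Ifngr1. That fit has a single WT library, the one that stood apart by its B cell markers, and takes its spread from the KO pair only. The summed neutrophil markers were also lower in both KO libraries (1489 and 1811 CPM, against 2278 and 2022 CPM in WT), and their part in the values of Osm and Ifngr1 was not tested.

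The genes whose pattern lay nearest to STAT5B, PIM2 and SOCS2, the called genes with the smallest p, were sought among 11478 KU812 genes averaging 50 counts or more, by Euclidean distance of log2 CPM centred over the 4 libraries. Nearest to STAT5B were SPIN2B (distance 0.019), CCT8 (0.033) and ZNF385A (0.036). Nearest to PIM2 were TYW1B (0.023), MIR1282 (0.051) and TFEC (0.053). Nearest to SOCS2 were ADAM10 (0.010), PCOLCE (0.013) and TMEM5 (0.018). With 4 libraries such neighbours are close by their number alone, and 5 of the 9 did not pass the test of shANP32B against shNC.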

How the data were processed

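For each library the authors deposited raw counts by gene symbol, whole numbers without normalization as the values show. Per the submitters' processing notes, the tools were DESeq, Cufflinks, TopHat and HISAT2 and the builds GRCh38 and GRCm38. Their roles, the counter, strand setting, shared reads and annotation: not given in the sources used here. No gene in the tables has a sum under 10 across its experiment. Each experiment was fitted by itself on all genes with edgeR 4.0.16 in R 4.3.3 (filterByExpr, TMM, quasi-likelihood test, Benjamini-Hochberg adjustment, threshold 0.05). CPM use TMM-scaled library sizes; a count of 3 stands for 0.107 to 0.122 CPM in KU812 and 0.197 to 0.286 CPM in LSK libraries. The SE is the unmoderated log2 coefficient over the root of F, and 95% intervals are set around that coefficient. The interaction used 1 model over all 8 libraries. DESeq2 1.42.0, limma 3.58.1 (voom with quality weights), other scalings and filters, a replicate block and leaving out each library were the alternatives. The tests were also run on simulated counts drawn with the spread fitted to these same libraries. The outcome is not reported here and lends the calls no support. The 9 genes, the pathway lists and the marker lists were chosen with earlier results of these data known. From each pathway list, up to 3 called genes per direction with the smallest p are named, or the smallest p where none passed. Some genes that this rule or the lists would name are not reported here.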

Additional observations from a re-analysis of the deposited data

How the results depend on the processing

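All KU812 directions of the 9 genes were kept under every alternative run. Leaving out 1 library gave 3 to 6 of 9 genes called in KU812 cells and 14 to 30 pathway genes, 0 of 9 in LSK cells with 0 to 9 pathway genes, and 0 to 1 of 9 in the interaction. With the replicate number as a block, 4 of 9 genes and 30 pathway genes were called in KU812 cells (4164 of all genes, against 2741), 0 of 9 in LSK cells (15 of all genes) and 0 of 9 in the interaction. The labels give no shared culture, animal or day to the numbers, and deviations of same-numbered libraries correlated at 0.17 in KU812 and -0.078 in LSK cells across genes. Several values near 0 changed sign. Scaled by library totals, Abl1 in LSK cells stood at 0.041. Leaving out 1 LSK library gave ranges of -0.022 to 0.0048 for Abl1, -0.14 to 0.25 for Stat5a, -0.52 to 0.16 for Cish, -0.15 to 0.21 for Pim1 and -0.042 to 0.23 for summed Stat5a and Stat5b. Leaving out any 1 library moved the interaction of BCR between -0.19 and 0.14, of STAT5A between -0.30 and 0.093, of CISH between -0.41 and 0.27 and of SOCS2 between -0.026 and 0.32; the cause was not tested. In LSK cells Anp32b itself missed the adjusted threshold (-1.76, adjusted p = 0.148).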
